A study of Mus musculus with 6 samples.

Results

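The genes described here are 10 immediate early genes, 6 of which encode subunits of the transcription factor AP-1. They were Fos, Fosb and Fosl2 (the Fos side of AP-1), Jun, Junb and Jund (the Jun side), Atf3 (an ATF family factor that can pair with Jun), Egr1 (a zinc finger factor), Ier2 (a nuclear immediate early protein) and Myc (a growth regulator that binds DNA with Max). They were named by gene symbol, with earlier results of these data known, and they make up 10 of the 45777 genes in the count table. Each passed the filter on low counts that left 16188 genes for testing, and 9 of the 10 were also listed among the 16800 genes with a TPM, an abundance scaled to transcript length and to the library. Fosb was counted but was not listed with a TPM.

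RNA-Seq was performed on the tibialis anterior (TA), a fast-twitch muscle at the front of the lower leg, of male C57BL/6J mice labelled as 24 months old. Vehicle, a solution of DMSO and Tween 80 per the study's methods, was given to one group (3 libraries). The other group received BML-260, a small-molecule inhibitor of the dual-specificity phosphatase DUSP22, at 5 mg/kg for 1 month (3 libraries). The comparison addresses which transcripts differ in aged muscle after BML-260, and the study places JNK, the kinase of c-Jun, downstream of DUSP22. No young or untreated group was analysed here, the inhibitor was injected and so was not confined to muscle fibers, and the labels number the libraries without naming a mouse for each. The p-values therefore measure only the spread between these libraries.

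AP-1 is a dimer of leucine zipper proteins in which a Jun protein pairs with another Jun or with a Fos protein, and Fos proteins need a Jun partner to bind DNA. JNK phosphorylates c-Jun and raises its activity without requiring more Jun mRNA, so the mRNA counts described here do not measure AP-1 activity. Immediate early genes are switched on within minutes by growth factors, contraction, injury or stress through SRF, its Elk partners and CREB, which are already present in the cell, and their mRNAs decay quickly. In muscle they are used as markers of recent activity or damage in fibers and in the cells between the fibers.

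Sequences at the gene starts are shown because these genes share the pattern described next, and they let a reader see which response elements lie close to each start. The windows hold 250 bases before and 50 bases after the start, come from RefSeq (GRCm38.p6) and are written 5′ to 3′ on the gene's strand. Of the 10 genes, 7 were matched, and Egr1, Ier2 and Myc were not in the table. Fos lies at chr12:85473640-85473939 (plus strand), Junb at chr8:84978699-84978998 (minus strand), Fosl2 at chr5:32136222-32136521 (plus strand) and Jun at chr4:95052173-95052472 (minus strand). Capitals mark TGACG, the core of the CREB element, in Fos and Junb, GCGNGGGCG, the Egr element, in Fosl2, and TGACATCA, the variant AP-1 element named after Jun, in Jun.
Fos: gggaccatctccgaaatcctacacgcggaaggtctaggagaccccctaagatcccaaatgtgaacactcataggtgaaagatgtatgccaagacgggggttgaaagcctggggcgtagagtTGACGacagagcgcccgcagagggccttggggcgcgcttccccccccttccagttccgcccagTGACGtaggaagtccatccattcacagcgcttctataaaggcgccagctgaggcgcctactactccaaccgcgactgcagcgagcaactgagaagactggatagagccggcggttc
Junb: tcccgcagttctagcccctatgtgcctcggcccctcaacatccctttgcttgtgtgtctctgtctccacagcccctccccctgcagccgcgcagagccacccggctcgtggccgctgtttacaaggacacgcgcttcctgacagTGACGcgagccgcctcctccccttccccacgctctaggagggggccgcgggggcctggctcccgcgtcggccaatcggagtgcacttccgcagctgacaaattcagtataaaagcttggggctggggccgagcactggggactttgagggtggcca
Fosl2: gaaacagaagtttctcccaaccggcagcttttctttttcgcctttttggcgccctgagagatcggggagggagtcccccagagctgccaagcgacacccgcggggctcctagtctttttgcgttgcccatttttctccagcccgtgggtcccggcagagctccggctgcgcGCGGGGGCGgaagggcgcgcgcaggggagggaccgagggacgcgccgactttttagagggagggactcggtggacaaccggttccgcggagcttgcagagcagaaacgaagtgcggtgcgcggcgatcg
Jun: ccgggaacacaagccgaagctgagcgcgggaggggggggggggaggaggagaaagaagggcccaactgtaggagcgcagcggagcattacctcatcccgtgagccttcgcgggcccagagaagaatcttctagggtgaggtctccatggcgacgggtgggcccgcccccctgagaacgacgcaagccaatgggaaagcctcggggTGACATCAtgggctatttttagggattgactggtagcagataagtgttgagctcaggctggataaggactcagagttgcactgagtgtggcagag

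TGACG was found on either strand in 4 of the 7 windows, beginning 129 and 66 bases upstream of the start in Fos, 60 in Fosb, 106 in Junb and, on the opposite strand, 7 in Atf3, against 20.8% of all 32851 promoter windows in the table. TGACATCA was found in Jun alone, 45 bases upstream, against 3.62% of all windows. GCGNGGGCG was found in Fosb and Fosl2, 50 and 79 bases upstream, against 5.55%. A TATAAA box stood 33 bases upstream of the start in Fos and at the start itself in Junb, against 13.6%. None of the 7 windows held the consensus AP-1 element TGANTCA (7.81% of all windows), the full CREB element TGACGTCA, which contains TGACG (1.79%), or a CArG box, the SRF element (1.63%). These letters were searched after the expression values were known, and a match in so short a window is a description of the sequence only.

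The 10 genes were highest in the same library. For 10 of 10 the maximum over the 6 libraries lay in vehicle replicate 3, which was the maximum for 32.3% of all tested genes. Its level was at least 2-fold above the mean of the other two vehicle libraries for 8 of the 10 genes, against 8.09% of all tested genes, and at least 5-fold above it for 4 (Fosb, Fos, Egr1 and Junb), against 1.06%. The ratio was 10.3 for Fosb, 8.60 for Fos, 6.51 for Egr1, 5.48 for Junb and 4.04 for Ier2. It was smaller for the other genes, at 2.31 to 2.36 for Myc and Jund, 1.99 for Fosl2 and 1.22 for Jun, with Atf3 between Fosl2 and Myc. The fold change of each of the 10 genes is therefore given with all 6 libraries and again without this library.

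**Figure D1:**
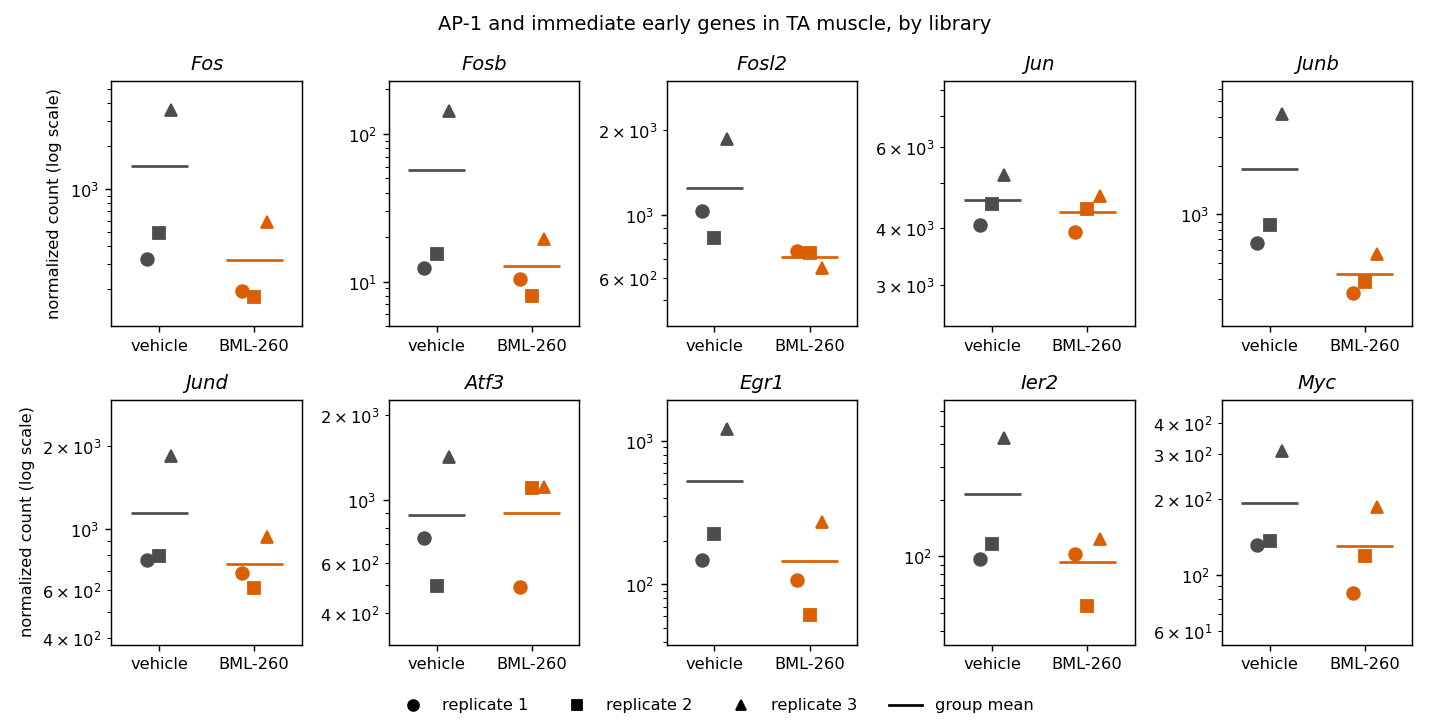
Normalized count (log scale, read counts divided by DESeq2 size factors) of each of the 10 genes in 3 vehicle and 3 BML-260 libraries, with marker shapes for the replicate numbers and a line at each group mean. Vehicle replicate 3 (grey triangle) is the highest point in all 10 panels, and in the Junb and Fosl2 panels alone the BML-260 points lie below every vehicle point.

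With all 6 libraries, 9 of the 10 genes had a lower estimate after BML-260, with a median log2 fold change of -1.01 against a median near 0 over all tested genes (-0.0039), of which 50.5% were lower. The test was edgeR's quasi-likelihood test. The threshold used below was 1.3-fold or more in either direction together with p below 0.05 before adjustment, and 4 of the 10 genes met it: Junb, Fosl2, Fos and Fosb. The background was 931 of 16188 genes, or 5.75%, in either direction and 4.86% in the lower direction, in which the 4 genes fell. None of the 10 genes had an adjusted p under 0.05, nor did any tested gene (0%), while 966 genes had an unadjusted p under 0.05. By DESeq2's Wald test the adjusted p was under 0.05 for 0 of the 10 genes and for 0.449% of all genes. Without vehicle replicate 3 the median log2 fold change of the 10 genes was -0.17, 8 estimates were lower, and 2 genes (Junb and Fosl2) were called lower against 2.92% of all genes. Leaving out another library changed both the count of the 10 genes and the background. The count was 7 against 13.3% of all tested genes without vehicle replicate 1 and 6 against 7.22% without vehicle replicate 2. Without BML-260 replicates 1, 2 and 3 it was 2 against 4.19%, 2 against 3% and 3 against 3.91%.

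Junb, a Jun family subunit that often restrains c-Jun, was at the threshold in more settings than any other of the 10 genes. Its normalized counts were 668, 856 and 4179 in the vehicle libraries and 326, 382 and 569 in the BML-260 libraries. The groups did not overlap, and they did not overlap without vehicle replicate 3 either. Junb fell by 2.16 on the log2 scale, or 4.46-fold (SE 0.65, 95% interval -3.65 to -0.66, unadjusted p = 0.010, edgeR adjusted p = 0.699). Leaving out vehicle replicate 3, it fell by 0.85, or 1.80-fold (unadjusted p = 0.0032, edgeR adjusted p = 0.401). Junb was at the threshold in 15 of 16 alternative settings, including each of the 6 that left out 1 library, the exception being DESeq2 with apeglm shrinkage, and its adjusted p stayed between 0.250 and 0.984 over them.

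Fosl2, which encodes the Fos family protein Fra-2, showed the same order with a smaller difference. It was counted at 1037, 830 and 1861 in vehicle and at 747, 734 and 649 in BML-260. Every BML-260 library lay below every vehicle library, and the BML-260 libraries spanned only 1.15-fold from lowest to highest. Fosl2 fell by 0.81 on the log2 scale, or 1.75-fold (SE 0.27, 95% interval -1.44 to -0.18, unadjusted p = 0.017, edgeR adjusted p = 0.759). With that library left out it fell by 0.40, or 1.32-fold (unadjusted p = 0.019, edgeR adjusted p = 0.834). Fosl2 was at the threshold in 12 of 16 settings. It missed when BML-260 replicate 3 was left out (unadjusted p = 0.063), with apeglm, and with limma in both TPM settings (unadjusted p = 0.059 and 0.052).

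Junb and Fosl2 were the 2 of 10 genes whose groups did not overlap, against 12.1% of all tested genes in either direction and 6.70% in the lower direction. Without vehicle replicate 3 the same 2 genes had non-overlapping groups, against 9.27% of all tested genes lower, while without BML-260 replicate 3 the number was 7 of 10, against 23.2% of all tested genes in either direction. The exact permutation test of 3 against 3 libraries cannot give a 2-sided p below 0.1, so it could not pass a threshold of 0.05 for any gene.

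Fos, whose protein c-Fos is the classical partner of c-Jun, had counts of 327, 499 and 3555 in vehicle and 194, 178 and 594 in BML-260. BML-260 replicate 3 lay above vehicle replicates 1 and 2, so the groups overlapped. Fos fell by 2.18 on the log2 scale, or 4.54-fold (SE 0.89, 95% interval -4.22 to -0.14, unadjusted p = 0.039, edgeR adjusted p = 0.788). Left without vehicle replicate 3, the Fos estimate was -0.37 (95% interval -1.34 to 0.60, unadjusted p = 0.422). Fos was at the threshold in 8 of 16 settings. It also missed without BML-260 replicate 1 or 2 (unadjusted p = 0.113 and 0.126), under DESeq2's Wald test (unadjusted p = 0.051) and hence with apeglm, with limma voom weights (-1.01, unadjusted p = 0.095) and in both TPM settings (unadjusted p = 0.098 and 0.086).

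Fosb, which encodes a Fos protein and its stable splice form delta FosB, was the least counted of the 10 genes. Raw counts were 13, 12 and 190 in vehicle and 12, 8 and 16 in BML-260, and the normalized counts were 12.4, 15.2 and 142 against 10.4, 8 and 19.6. The 5 libraries other than vehicle replicate 3 thus held 16 reads or fewer each. The log2 fold change of -2.19 (SE 0.95, 95% interval -4.36 to -0.021, unadjusted p = 0.048, edgeR adjusted p = 0.788) became -0.14 without vehicle replicate 3 (95% interval -1.67 to 1.38, unadjusted p = 0.840). It also missed the threshold when any BML-260 library was left out (unadjusted p = 0.065 to 0.139). A change in Fosb was not detectable from the few reads of the other 5 libraries.

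Jun, which encodes c-Jun, the JNK substrate itself, varied least of the 10 genes between the vehicle libraries. Its counts were 4046, 4506 and 5223 in vehicle and 3907, 4397 and 4700 in BML-260. The mean was 4592 ± 593 (SD, n = 3) in vehicle and 4335 ± 400 (SD, n = 3) in BML-260, and the groups interleaved. The log2 fold change was -0.085 (SE 0.15, unadjusted p = 0.596, edgeR adjusted p = 0.889), with a 95% interval of -0.44 to 0.27. The estimate for Jun was 0.014 without vehicle replicate 3. Jund, a Jun subunit that most resting cells express, was counted at 769, 795 and 1847 in vehicle and 688, 607 and 936 in BML-260, with overlapping groups. Its log2 fold change was -0.61 (SE 0.34, unadjusted p = 0.110, edgeR adjusted p = 0.788) and -0.08 without vehicle replicate 3.

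Atf3, a stress-induced repressor of the ATF family, was the gene with no direction. Normalized counts were 736, 498 and 1421 in vehicle and 493, 1107 and 1111 in BML-260, so the groups overlapped, with the lowest library from BML-260 and the highest from vehicle. Its log2 fold change was 0.027 (SE 0.41, 95% interval -0.92 to 0.97, unadjusted p = 0.949, edgeR adjusted p = 0.989). The Atf3 estimate without vehicle replicate 3 was 0.54 (unadjusted p = 0.109), the highest of the 10 genes in that comparison.

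Egr1, a zinc finger factor induced by the same SRF and Elk route as Fos, had counts of 147, 225 and 1210 in vehicle and 108, 61.0 and 270 in BML-260. The log2 fold change of Egr1 was -1.86 (SE 0.82, 95% interval -3.74 to 0.021, unadjusted p = 0.052, edgeR adjusted p = 0.788), just outside the threshold, and -0.35 without vehicle replicate 3. Ier2 had counts of 97.2, 116 and 430 in vehicle and 103, 54.0 and 123 in BML-260. The groups overlapped for both genes, with BML-260 replicate 3 above vehicle replicates 1 and 2, and for Ier2 BML-260 replicate 1 also lay above vehicle replicate 1. For Ier2 the log2 fold change was -1.20 (SE 0.58, unadjusted p = 0.070, edgeR adjusted p = 0.788) and -0.19 without vehicle replicate 3. Myc was counted at 131, 136 and 308 in vehicle and 84.7, 119 and 185 in BML-260. It had a log2 fold change of -0.58 (SE 0.41, unadjusted p = 0.195, edgeR adjusted p = 0.788) and of -0.055 without vehicle replicate 3.

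**Figure D2:**
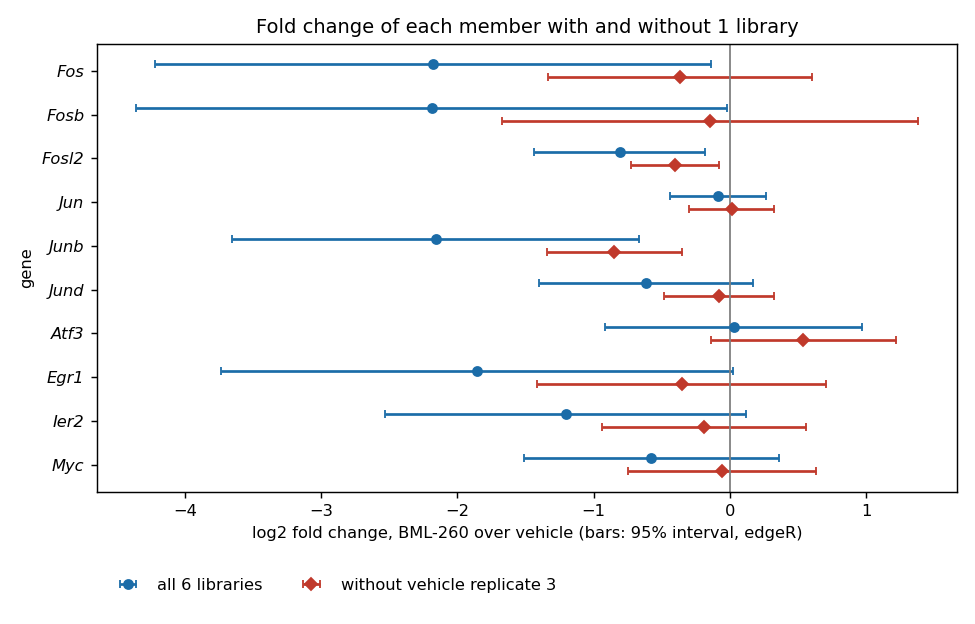
Log2 fold change (BML-260 over vehicle, x axis) of each gene (y axis) with 95% intervals from edgeR, with all 6 libraries (blue circles) and without vehicle replicate 3 (red diamonds). Without that library 8 of 10 intervals include 0, and those of Fosl2 (-0.72 to -0.08) and Junb (-1.34 to -0.35) lie below it.

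The remaining libraries also held a common order. Among the BML-260 libraries, replicate 3 was the highest for 9 of the 10 genes, the exception being Fosl2, against 32.7% of all tested genes. Vehicle replicate 2 exceeded vehicle replicate 1 for 8 of 10, against 48.9% of all. BML-260 replicate 2 was the lowest of the 6 libraries for 5 genes and BML-260 replicate 1 for 4. The genes shared these libraries, so the counts describe 6 libraries and are not 10 separate observations.

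**Figure D3:**
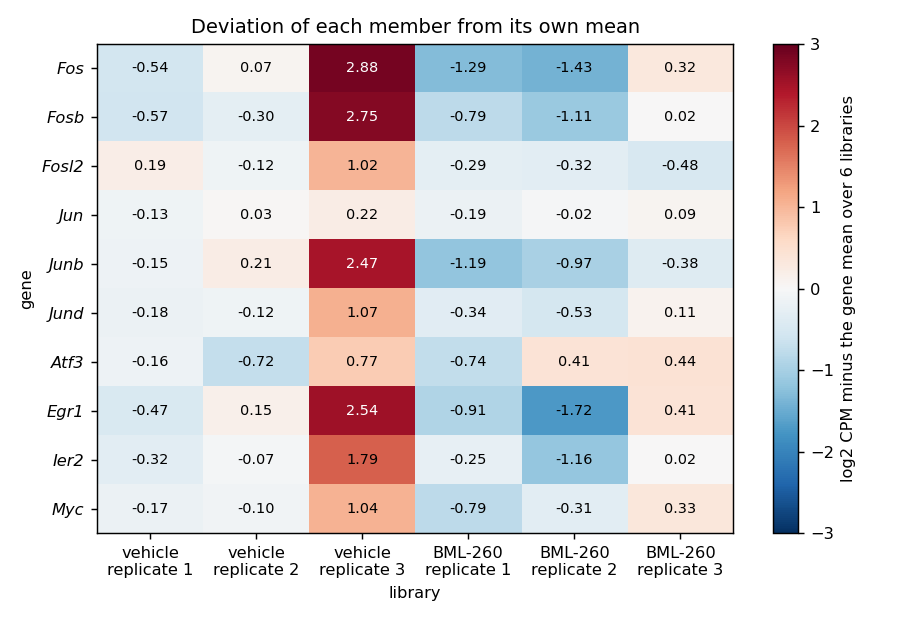
Log2 CPM (counts scaled to the TMM-adjusted library total) of each gene (rows) in each library (columns), minus the gene's mean over the 6 libraries. Red lies above that mean and blue below it. Vehicle replicate 3 runs from 0.22 (Jun) to 2.88 (Fos), and the lowest value is Egr1 in BML-260 replicate 2 (-1.72).

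The spread within groups followed the same library. The SD of log2 CPM was larger in vehicle than in BML-260 for 10 of the 10 genes, against 70.5% of all tested genes, with a median SD of 0.95 against 0.57. In vehicle the SD ran from 0.18 for Jun to 1.84 for Fosb and 1.82 for Fos. Without vehicle replicate 3 the SD was larger in vehicle for 1 of 10 genes (48.0% of all), with a median of 0.21. Within BML-260 the widest genes were Egr1 (SD 1.07, a 4.43-fold range) and Fos (0.97, 3.34-fold), and the narrowest were Fosl2 (0.10) and Jun (0.14, 1.20-fold). Leaving out BML-260 replicate 3 lowered the BML-260 median from 0.57 to 0.19.

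Profiles over the 6 libraries were compared by the Euclidean distance of centred log2 CPM, as a description. Fos and Egr1 were each other's nearest of the 10 genes (0.60), and Jund and Myc were likewise (0.54). Fosb lay nearest to Fos (0.77), Junb to Fosb (0.92) and Fosl2 to Jund (0.73). Jun was the farthest of the 10 genes from Fos, Fosb, Junb and Egr1, and its distance to Fos was the longest (3.23). Outside the 10 genes, the 5 tested genes closest to the median profile of the 10 were Spsb1 (0.34), Csmd1 (0.37), Nfkbiz (0.37), Itga5 (0.41) and Shroom3 (0.42). Nfkbiz, an inducible nuclear IkB protein, was counted at 158, 149 and 539 in vehicle and at 115, 104 and 159 in BML-260. The 5 genes were picked for this profile, so their height in vehicle replicate 3 follows from the choice.

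Levels between genes were compared per length on the TPM scale. In BML-260 muscle Jun was the most abundant at 47.7 ± 7.33 TPM (SD, n = 3), followed by Atf3 at 16.2 ± 7.11, Jund at 9.03 ± 2.37, Junb at 8.14 ± 2.82, Fos at 5.40 ± 4.15 and Fosl2 at 4.21 ± 0.29. Ier2 (2.12 ± 0.82 TPM), Myc (1.89 ± 0.83) and Egr1 (1.67 ± 1.32) were the lowest. Between neighbours in this order the ranges over the 3 libraries overlapped except between Jun and Atf3 and between Fosl2 and Ier2. Vehicle replicates 1 and 2 also had Jun first, at 44.9 and 47.6 TPM. In vehicle replicate 3 the order changed, with Junb at 111 TPM, Fos at 82.5 TPM and Jun at 80.2 TPM.

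The makeup of the AP-1 message pool, taken as the summed TPM of Jun, Junb, Jund, Fos and Fosl2, moved with it. The sum was 78.8, 85.4 and 321 TPM in vehicle and 59.8, 72.8 and 90.6 TPM in BML-260, so that BML-260 replicate 3 exceeded 2 of the vehicle libraries. Jun supplied 56.9%, 55.8% and 25.0% of it in vehicle and 65.9%, 68.8% and 59.0% in BML-260. Every BML-260 library had a larger share from Jun than any vehicle library. Junb supplied 16.3%, 18.4% and 34.7% in vehicle and 9.49%, 10.3% and 12.4% in BML-260, again without overlap and in the opposite order. The TPM ratio of Junb to Jun was 0.286, 0.329 and 1.39 in vehicle and 0.144, 0.150 and 0.210 in BML-260. For Fos to Jun it was 0.122, 0.167 and 1.03 in vehicle and 0.0752, 0.0609 and 0.191 in BML-260, with overlap. The shares are parts of the same sum, so those of Jun and Junb and their ratio are not separate from the lower Junb. Jun TPM itself overlapped, at 44.9, 47.6 and 80.2 in vehicle and 39.4, 50.1 and 53.5 in BML-260. No matching share over all tested genes was computed. Shares and ratios within a library do not depend on its scaling, while single TPM values do. The log2 ratio of TPM to normalized count was centred, for each gene, on its mean over the 5 libraries other than vehicle replicate 3. Over the tested genes with a TPM, the median of this centred ratio was 0.50 in vehicle replicate 3. It was -0.11 to 0.06 in the other 5 libraries.

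**Figure D4:**
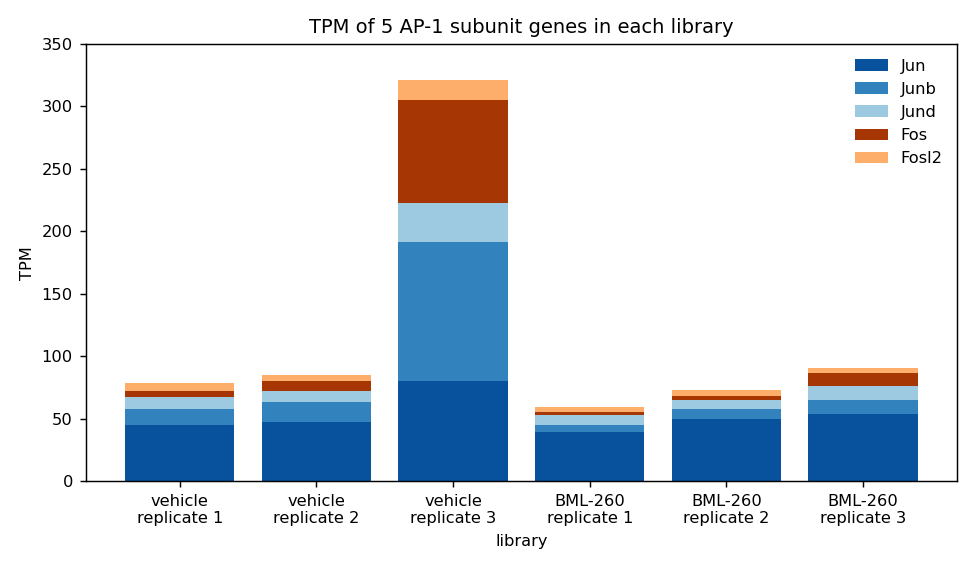
Stacked TPM (y axis) of Jun, Junb, Jund, Fos and Fosl2 in each of the 6 libraries (x axis). The stack reaches 321 TPM in vehicle replicate 3 and 59.8 to 90.6 TPM in the other libraries, where Jun is the largest block.

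Other immediate early genes were counted from a list of 26, of which 25 were tested. In this list 24 estimates were lower after BML-260 (median -0.51 on the log2 scale), and 9 genes were at the threshold, all lower (background 4.86%). They were Socs3 (-2.74), the feedback inhibitor of JAK-STAT signalling, Sik1 (-1.67), a CREB-induced kinase, Btg2 (-1.44), Csrnp1 (-1.37), Nr4a3 (-1.24), an orphan nuclear receptor, Nfkbiz (-1.17), Ier3 (-1.17), Ccn2 (-0.87) and Zfp36 (-0.81), which destabilizes AU-rich mRNAs. Vehicle replicate 3 was the highest library for 21 of the 25. Without it 3 genes were lower at the threshold, against 2.92% of all genes: Sik1 (-1.03), Nr4a3 (-0.82) and Socs3 (-0.76). The median over the list was then -0.14, and the other 6 of the 9 had estimates of -0.46 to -0.18. Sik1 was counted at 1147, 1339 and 3337 in vehicle and at 477, 542 and 810 in BML-260, without overlap. Leaving out BML-260 replicate 1, 2 or 3 instead gave 3, 2 and 4 calls, against 4.19%, 3% and 3.91% of all tested genes. Leaving out vehicle replicate 1 or 2 gave 9 and 10 calls, against 13.3% and 7.22%.

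Genes that AP-1 is known to regulate in other cells were counted from a list of 14, of which 12 were tested. Lower estimates were found for 11 of the 12 (median -1.27 on the log2 scale), and 7 were lower at the threshold (background 4.86%). These were the proteases Mmp3 (-3.20) and Mmp9 (-2.53), the protease inhibitor Timp1 (-2.05), the chemokine Ccl2 (-3.08), the urokinase receptor Plaur (-1.57), the adhesion receptor Cd44 (-0.97) and heme oxygenase Hmox1 (-0.80). Without vehicle replicate 3 the calls numbered 2, Timp1 (-1.11) and Hmox1 (-0.51), against 2.92% of all genes lower. The median was then -0.49, and the other 5 had estimates of -0.99 to -0.46. The calls numbered 7, 3 and 4 without BML-260 replicates 1, 2 and 3, against 4.19%, 3% and 3.91% of all tested genes. They numbered 10 and 8 without vehicle replicates 1 and 2, against 13.3% and 7.22%. Timp1 was counted at 35.3, 40.7 and 142 in vehicle and 24.2, 11 and 17.1 in BML-260. Mmp13 and Il6 did not pass the filter, and their normalized counts were 367 and 56.1 in vehicle replicate 3 and no more than 14.0 and 8 elsewhere. Spp1 was counted at 911 in vehicle replicate 3 and at 69.9 to 170 in the other libraries. Many of these genes are also expressed by macrophages and neutrophils.

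**Figure D5:**
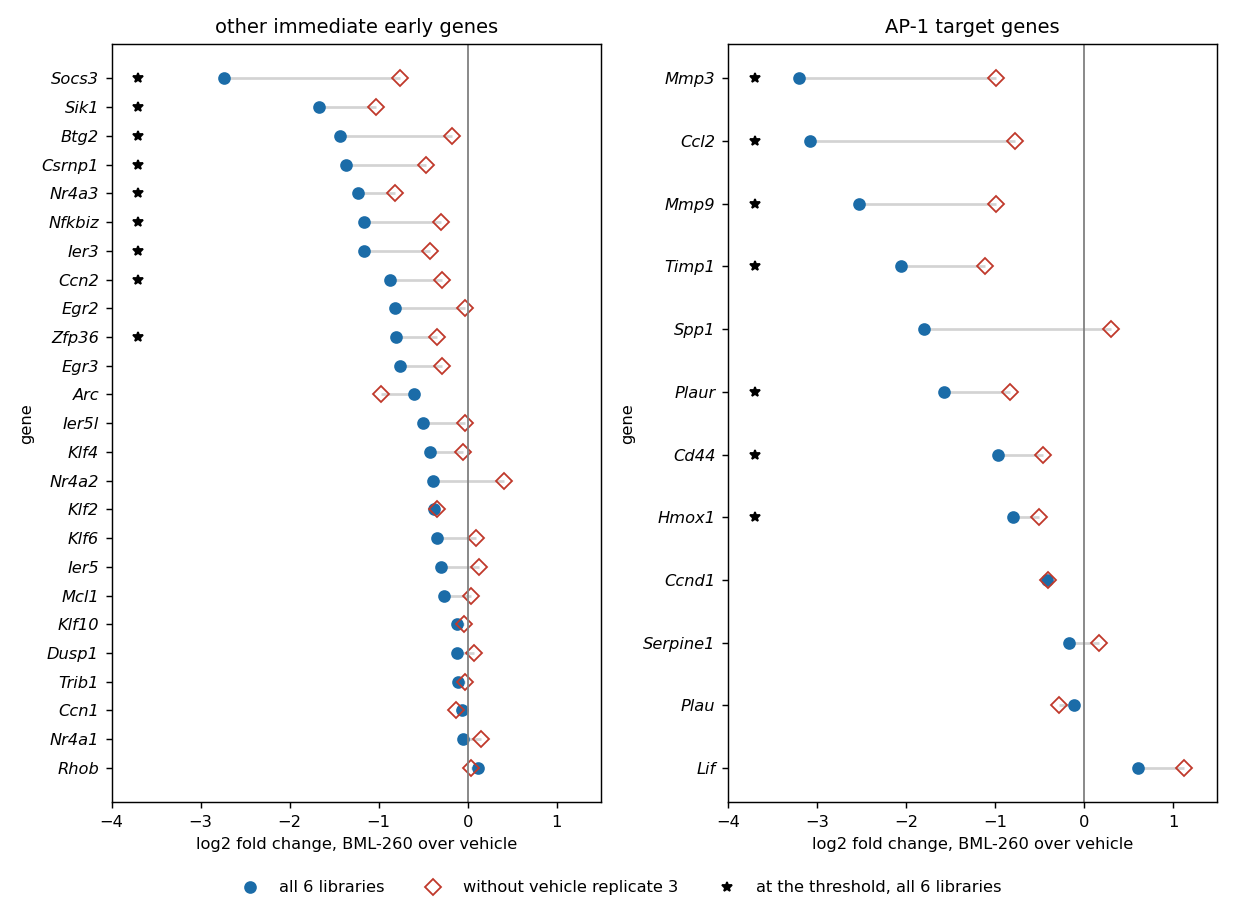
Log2 fold change (BML-260 over vehicle, x axis) of 25 other immediate early genes and 12 AP-1 target genes (y axis), with all 6 libraries (filled circles) and without vehicle replicate 3 (open diamonds), stars marking genes at the threshold. The stars number 9 and 7, and most open diamonds lie closer to 0 than their circles, with Arc and Lif among those that do not.

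The partners and upstream factors moved less. Of 12 other bZIP genes of the AP-1 superfamily, 9 were tested, 5 estimates were lower, and Maff, a small Maf factor, was called lower (-1.09, unadjusted p = 0.044), with counts of 176, 142 and 531 in vehicle and 130, 117 and 153 in BML-260. Mafk had the next smallest p (-0.87, unadjusted p = 0.085). Without vehicle replicate 3 the estimates were -0.27 for Maff, no longer at the threshold, and -0.08 for Mafk. Among 8 SRF, Elk and CREB factors, Elk4 was called lower (-0.55, unadjusted p = 0.034, and -0.29 without vehicle replicate 3) and Srf had the next smallest p (0.45, unadjusted p = 0.118, and 0.23 without it). In the JNK arm, no gene of 6 was at the threshold and 6 of 6 estimates were above 0, the smallest p values being those of Mapk9, which encodes JNK2 (0.29, unadjusted p = 0.088), and of Map2k7, a JNK kinase (0.23, unadjusted p = 0.127), at 0.21 and 0.16 without vehicle replicate 3. The median over these 6 genes was 0.23 with all libraries and 0.07 without vehicle replicate 3, where 2 of the 6 estimates were below 0. For Mapk9 and Map2k7 every BML-260 library lay above every vehicle library, against 12.1% of all tested genes without overlap in either direction. Dusp22, which encodes the drug target, was at 0.23 (unadjusted p = 0.375) and at -0.0054 without vehicle replicate 3.

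The partners, antagonists and targets of Myc and Egr1 gave few calls. Of the 11 tested genes of the Myc network, Mxd1, a Max partner that opposes Myc, was called lower (-0.86, unadjusted p = 0.024), and Mlxip had the next smallest p (0.33, unadjusted p = 0.065, and 0.28 without vehicle replicate 3). Mxd1 was not at the threshold without vehicle replicate 3 (-0.39, unadjusted p = 0.069), and no gene of the network was called when any BML-260 library was left out. Of 12 Myc target genes none was at the threshold, and the smallest p values were those of Odc1, the first enzyme of polyamine synthesis (-0.66, unadjusted p = 0.056), and Npm1, a nucleolar chaperone (-0.52, unadjusted p = 0.057), whose estimates without vehicle replicate 3 were -0.23 and -0.18. The Egr1 corepressors Nab1 (-0.24, and -0.16 without vehicle replicate 3) and Nab2 (-0.17 and -0.13) were not called. Over all lists, 0 genes had an adjusted p under 0.05 in edgeR.

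The libraries held 39522890 to 56998875 counts each, and vehicle replicate 3 (52165766 counts) was not the deepest. Fast-fiber markers were the most abundant of the marker lists in all 6 libraries, with summed normalized counts of 2552420 in vehicle replicate 3 and 4405090 to 5462210 elsewhere. The leukocyte marker sums, like the 10 genes, were highest in vehicle replicate 3. So was the satellite cell marker sum, at 1763 there and 1520 in the next highest library, BML-260 replicate 3. The 7 macrophage markers summed to 5350, 5463 and 15767 in vehicle and 3388 to 3986 in BML-260. Of these 7, 6 were lower at the threshold (4.86% of all tested genes), and 5 without vehicle replicate 3 (2.92%). The 6 neutrophil markers summed to 2432, 381 and 8178 in vehicle and 97.0 to 218 in BML-260. With or without vehicle replicate 3, 4 of the 4 tested were lower at the threshold, against the same shares of all genes. Of the defining neutrophil genes, Ly6g and Mpo did not pass the filter. Ly6g was at 0 in every library but vehicle replicate 3 (23.9). Mpo was at 1.91, 0 and 133 in vehicle and at 0 in the 3 BML-260 libraries. Vehicle replicates 1 and 2 stood at 2432 and 381 in the neutrophil sum and at 5350 and 5463 in the macrophage sum. In each of the 10 genes these 2 libraries differed from each other by 1.53-fold or less. Endothelial markers summed to 6954 to 8113 in vehicle and 6376 to 8274 in BML-260, fibroblast markers to 23443 to 39215 and 21941 to 38172, and satellite cell markers to 1065 to 1763 and 1235 to 1520. In bulk muscle, a difference in the number of cells of a type and a difference in RNA per cell cannot be told apart, and the part of leukocyte content in the values of the 10 genes was not tested.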

How the data were processed

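Gene counts and TPM were analysed as deposited by the authors, who prepared stranded total RNA libraries. The submitters' processing notes name StringTie 2.1.3b, HISAT2 2.1.0, Trimmomatic 0.38, Bowtie2 2.3.4.1 and mm10, and the counting strand setting was not given in the sources used here. The deposited raw counts cover 45777 genes, and the deposited TPM values cover 16800 genes, none of which had a 0. Symbols were joined by gene ID. Counts (39522890 to 56998875 per library) were filtered with filterByExpr, scaled by TMM and tested with edgeR 4.0.16 (quasi-likelihood, Benjamini-Hochberg over 16188 genes), without covariates. The printed normalized counts were divided by DESeq2 1.42.0 size factors, and log2 CPM used a prior count of 2. Alternatives were RLE and upper quartile scaling, other filters, DESeq2 with and without apeglm, limma 3.58.1 with voom weights, limma on log2(TPM + 1) and log2(TPM + 0.1) for genes with a mean TPM of at least 0.5, a replicate block, and each library left out. The scripts were tested on simulated data.

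The 10 genes and the gene lists were chosen with earlier results of these data known. Named genes were the 10, list genes at the threshold (for lists of 12 or fewer, at least the 2 with the smallest p) and the 5 with the nearest profile. Any other gene was named after its values were seen.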

Additional observations from a re-analysis of the deposited data

How the results depend on the processing

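No setting tried gave any of the 10 genes an adjusted p under 0.05. The number at the threshold was 4 with all libraries (5.75% of all tested genes). It was 4, with the same genes, under RLE (5.78%) or upper quartile scaling (5.84%). It was also 4 under DESeq2's Wald test (4.56% of all genes), where Fos was lost and Ier2 gained (unadjusted p = 0.027). With at least 10 counts in every library (5.94%) it was 4: Fosb was not tested and Egr1 was gained (unadjusted p = 0.049). Without a filter it was 6 (5.49%), with Egr1 and Ier2 added. It was 2 with limma voom weights (5.5%), 1 with log2(TPM + 1) (3.66%) and 1 with log2(TPM + 0.1) (3.95%). With apeglm, which shrank the estimates toward 0 (median log2 fold change -2.7e-06), it was 0 (0.384%). It ran from 2 to 7 when 1 library was left out, against 3% to 13.3% of all tested genes. Non-overlapping genes ran from 2 to 7 over those omissions, and genes with the larger SD in vehicle from 1 to 10. Jun, at -0.085, ran from -0.17 to 0.014 over the omissions, turning without vehicle replicate 3. Atf3, at 0.027, ran from -0.25 (without vehicle replicate 2) to 0.54 (without vehicle replicate 3), also turned without vehicle replicate 1 and without BML-260 replicates 2 or 3, and was -0.080 with either TPM setting. Fosb could not be fitted in the TPM settings or with at least 10 counts in every library. The labels do not say that equal replicate numbers pair the libraries. Deviations of same-numbered libraries from their group means correlated at only 0.16, 0.054 and 0.11. Of 6 libraries, 6 correlated best with their own number in the other group. The deviations within a group sum to 0, so these matches are not 6 separate observations. They are at most a weak hint from the data rather than the design. A fit with the replicate number as a block called 6 of the 10 genes against 6.53% of all tested genes, losing Fosb (unadjusted p = 0.057) and gaining Egr1 (unadjusted p = 0.0050), Jund (unadjusted p = 0.031) and Ier2 (unadjusted p = 0.047). The Fosb estimate rested on 16 reads or fewer in 5 of the 6 libraries, and each group held 3 libraries.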
